A study of Mus musculus with 29 samples.

Results

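The mitochondrially encoded genes of the mouse were followed through neural differentiation of embryonic stem cells. Members were the genes whose transcript cluster, the unit for which the array gives 1 value, carried a single symbol starting with mt-, and the cluster with the highest mean stood for each gene. Only 2 of 30142 genes met this rule: mt-Rnr1, the 12S ribosomal RNA of the small subunit of the mitochondrial ribosome, and mt-Tk, the transfer RNA for lysine. The genes were thus chosen by symbol and by the mean log2 signal over all arrays, and mt-Tk was also selected on its measured rise between genotypes in mESC, so its values there are a description. For comparison, 5 protein genes were added after their values had been seen, because their gene IDs belong to the mitochondrial chromosome although their symbols lack the prefix: ND2, ND3 and ND6, subunits of complex I, and COX1 and COX2, subunits of complex IV. A further 4 clusters named several mitochondrial genes together and 19 named none, although their identifiers carry the prefix that the named mitochondrial clusters share. These 23 are described by number and are not assigned to a gene. In all, 30 of 65956 clusters were mitochondrial.

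The 29 arrays came from wild-type (WT) mouse cells and from cells labelled BERKO, a knockout of estrogen receptor beta (ERb, gene Esr2). Both genotypes were sampled at 4 stages: stem cells kept with LIF (mESC), neural precursors expanded with FGFb (NPC), midbrain precursors whose medium also held Shh and FGF8b (mDPC), and a last stage that the labels call mature midbrain neurons (MN). mESC were untreated. At the later stages each genotype was sampled without and with 0.5 nM LY3201, an ERb-selective agonist. NPC and mDPC received LY3201 or the vehicle DMSO for 4 days, and the length was not given for MN. Each of the 14 groups held 2 arrays, except untreated BERKO MN with 3, described as biological replicates. How many lines or clones the replicates came from was not given. All cells were grown without feeders.

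Mammalian mitochondrial DNA is transcribed from both strands into long precursors, which hold the ribosomal RNAs, the messenger RNAs and the transfer RNAs that lie between them. Nuclear-encoded enzymes cut the precursors at the transfer RNAs, and the lysine transfer RNA then reads lysine codons on the mitochondrial ribosome. The RefSeq annotation of assembly GRCm38.p6 lists 22 transfer RNAs, 2 ribosomal RNAs and 13 protein genes on this chromosome. In it the lysine transfer RNA lies between COX2 and ATP8. ND6 differs from the other protein genes in being read from the opposite strand. Probe positions and the use of strand were not given in the sources used here, so precursor and mature RNA, or the 2 strands, cannot be told apart. No mitochondrial sequence is printed, because the reference tables used here hold none.

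Signals in this text are log2 values per cluster, a difference of 1 being a doubling, and levels of different clusters are not compared. The 29 array medians lay between 3.52 and 3.74. A cluster is called background-level where it lay below the 95th percentile of the array's negative controls, which was 6.63 to 7.66. Esr2 was at background level in all 14 WT arrays (3.21 to 3.47) and in all 15 BERKO arrays (3.80 to 4.46), where it was the higher, so it did not check the genotype label. Whether its probes lie in the deleted part was not given, and BERKO stands for the label throughout. The pluripotency genes Pou5f1 and Nanog were well above background in mESC only. At the MN stage the dopaminergic markers Th, Slc6a3, Pitx3 and Nr4a2 were at background level in all 9 arrays. The astrocyte gene Gfap stood at 18.78 to 19.00, but the other astrocyte genes listed did not share its rise. From mDPC to MN the median over all arrays went from 15.20 to 18.95 for Gfap and from 9.13 to 9.16 for Aqp4. It fell from 10.26 to 9.57 for Slc1a3 and from 7.07 to 6.56 for Aldh1l1. Aldh1l1 was at background level in 8 of 9 MN arrays. The neuron genes Map2, Rbfox3, Snap25, Stmn2 and Tubb3 were summed in log2 units. Untreated MN gave 42.89 to 52.01 in WT and 39.63 to 40.95 in BERKO, with 3 of 5 above background in both. Untreated mDPC gave 39.67 to 40.05 and 36.93 to 37.09, with 2 of 5. mESC gave 39.20 to 39.57 and 40.44 to 40.53, with 2 of 5, so the BERKO mESC sums lay within the BERKO MN range. From mDPC to MN the medians over all arrays fell for Map2 (13.78 to 12.20), Rbfox3 (5.21 to 4.06) and Snap25 (5.52 to 4.98). Rbfox3 was at background level in all 8 mDPC and all 9 MN arrays, so its change lay within background. Snap25 was at background level in all 8 mDPC and 7 of 9 MN arrays, but reached 9.62 in MN. Only the medians of Tubb3 (7.99 to 9.19) and Stmn2 rose. Stmn2 stood at 10.72 in MN and 16.01 in mESC. MN is used here for the labelled stage.

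mt-Rnr1 was at the top of the scale in every array. Its level was 19.64 to 19.93, and in 29 of 29 arrays it lay within 0.0001 of the array's highest value. No difference between groups could be measured for it, and no fold or test is given. The same held for most arrays of the clusters that name several genes: the cluster of mt-Rnr2 with ND1 was within 0.01 of the highest value in 27 arrays, that of ATP8, ATP6 and COX3 in 28, that of ND4 and ND4L in 24, and that of ND5 and CYTB in 25. ND3, a small complex I subunit, reached the highest value in 3 arrays. COX1, the catalytic subunit of complex IV, never reached it, but stood at a single fixed gap of 4.54 below it (within 0.01) in 17 arrays. COX2, the subunit that takes up electrons from cytochrome c, did so at a gap of 8.58 in 15 arrays. Among 43502 clusters tested, 90 (0.207%) held a common gap in 10 or more arrays. These 8 clusters are called bound. The other 22, mt-Tk, ND2, ND6 and 19 unnamed, did not meet this limit and are called free. Unnamed cluster 19 still came within 0.0661 of the highest value in its closest array, so its upper levels may be limited by the scale. The limit of 10 arrays was chosen after seeing the data.

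**Figure D1:**
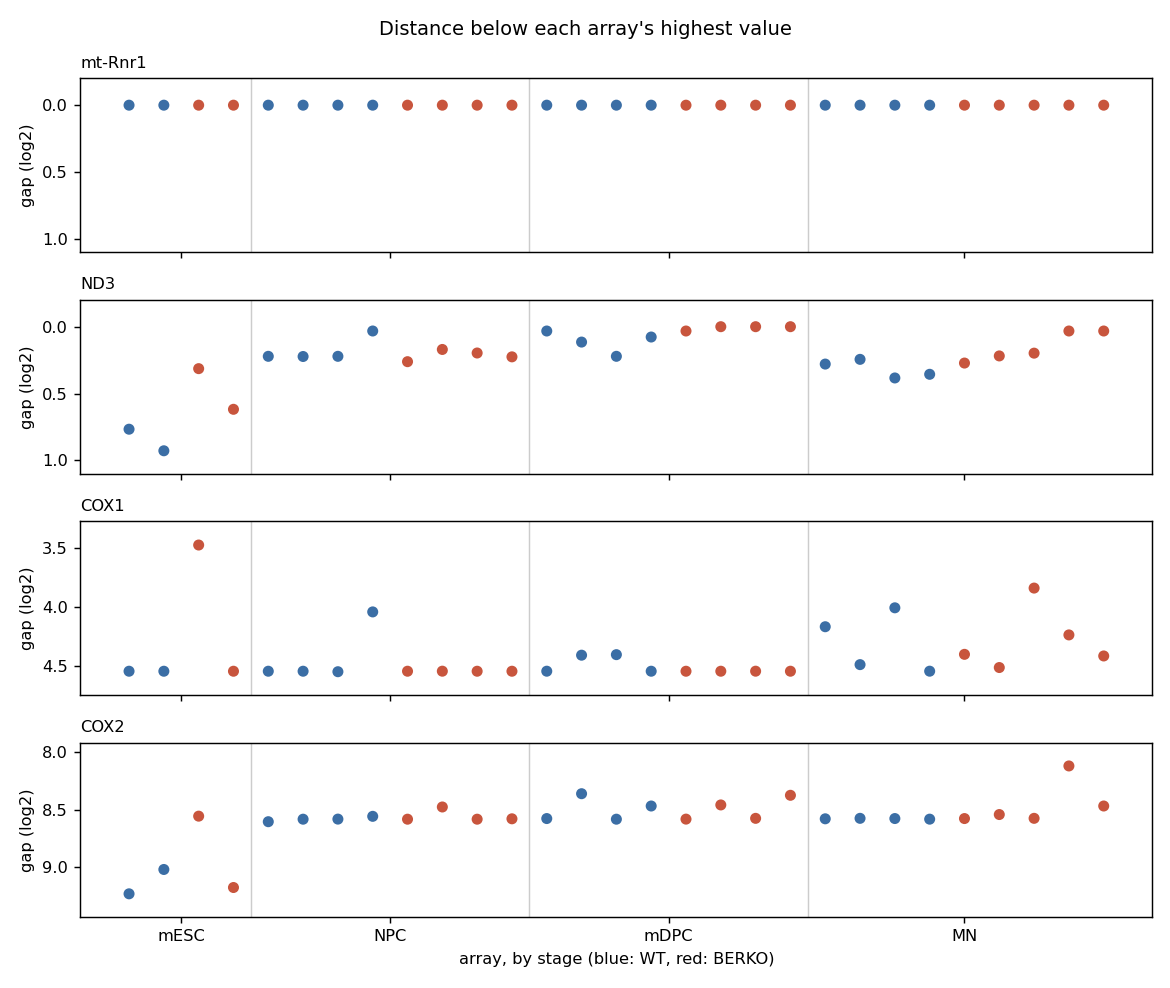
Distance of 4 mitochondrial genes below the highest value of each array (log2, axis turned so that higher levels are at the top), 1 point per array by stage, WT blue and BERKO red. mt-Rnr1 sits at 0 in 29 of 29 arrays, and COX1 and COX2 lie on a flat line in 17 and 15 arrays.

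mt-Tk was lowest in WT mESC, and there it was apart from every other group. Its levels were 11.90 and 11.77 in WT mESC. In BERKO mESC they were 15.65 and 13.04. Both BERKO arrays lay above both WT arrays, but they differed from each other by more than the lower of them differed from WT. The titles of both BERKO arrays share a number, with a suffix on 1 of them, so whether they are separate samples was not settled and their spread may be technical. The same holds for WT NPC with LY3201. The difference of the means was 2.51 ± 0.59 (SE, n = 2 and 2 arrays), a 5.71-fold size and the largest rise among 22063 genes. This is the contrast through which the gene was noted, so no test is given. It was 1.21 without BERKO array 1 and 3.82 without BERKO array 2.

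In untreated NPC the mt-Tk levels were 13.60 and 14.43 in WT, and 14.70 and 15.76 in BERKO. In NPC with LY3201 they were 13.79 and 14.67 in WT, and 14.65 and 14.44 in BERKO. The genotypes did not overlap without the agonist and overlapped with it. In mDPC the WT levels were 13.93 and 14.10 without LY3201 and 13.74 and 14.25 with it, all lower than the BERKO levels. Those were 14.63 and 15.58 without LY3201, and 15.15 and 15.00 with it. In MN all 4 groups overlapped, with 15.50 and 14.67 in WT, 15.18 and 14.23 in WT with LY3201, 14.71, 15.37 and 15.14 in BERKO, and 14.85 and 14.92 in BERKO with LY3201.

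**Figure D2:**
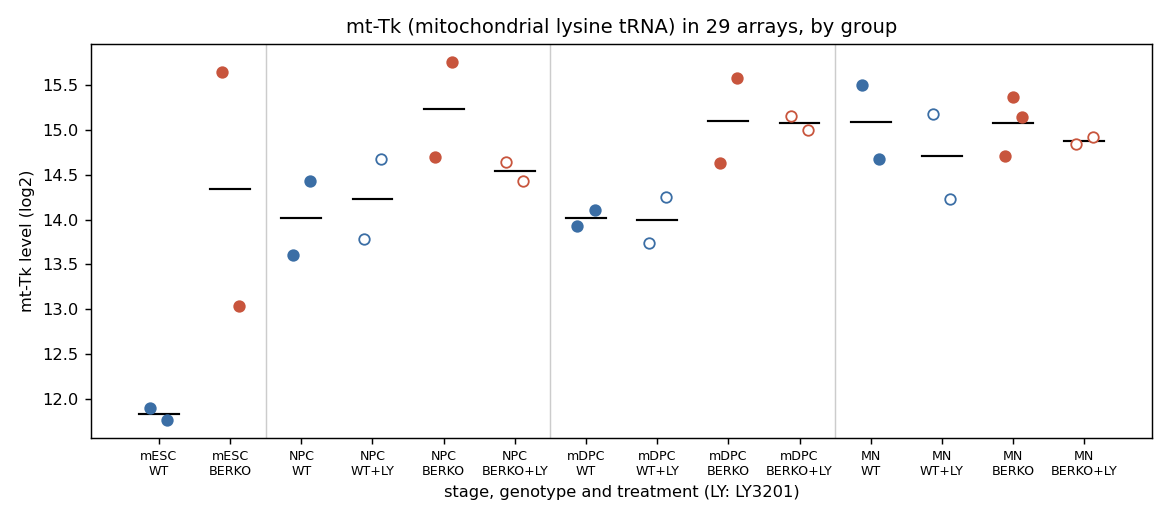
Level of mt-Tk (log2) in each of 29 arrays, by stage, genotype and treatment: filled points untreated, open points LY3201, WT blue, BERKO red, black lines group means. The WT mESC arrays sit at 11.90 and 11.77, below the other 27.

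mt-Tk did not pass the test in any of the 19 comparisons in which it was tested (limma, adjusted p of 0.163 or more, 0 of 19 with an unadjusted p under 0.05). Between genotypes it stood higher in BERKO by 1.22 ± 0.59 in untreated NPC (adjusted p = 0.197), by 1.08 ± 0.59 in untreated mDPC (adjusted p = 0.275) and by 1.08 ± 0.59 in mDPC with LY3201 (adjusted p = 0.259). In these 3 comparisons the groups did not overlap, which was so in the same direction for 34.2%, 31.6% and 23.4% of all genes tested. The 95% intervals ran from -0.02 to 2.46, from -0.16 to 2.32 and from -0.16 to 2.32. In untreated MN the genotypes differed by -0.01 ± 0.54 (adjusted p = 0.991), in NPC with LY3201 by 0.31 ± 0.59 (adjusted p = 0.861) and in MN with LY3201 by 0.18 ± 0.59 (adjusted p = 0.881). Between genotypes the test called 15.7%, 13.8% and 20.8% of genes in untreated NPC, mDPC and MN, and 10.4%, 15.3% and 19.6% with LY3201. Whether the difference in mESC is larger than at later stages was not tested.

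Ordered by group mean, mt-Tk was lowest in WT mESC (11.83), followed by WT mDPC with LY3201 (13.99), WT NPC (14.02) and WT mDPC (14.02). The highest means were in BERKO NPC (15.23), BERKO mDPC (15.10) and WT MN (15.09). WT mESC did not overlap with the group next to it in this order, whereas each later pair of neighbours overlapped. The gene was noted through a difference that these WT mESC arrays entered, so their low place in the order is a description only. From mESC to NPC mt-Tk was higher by 2.18 in WT and by 0.89 in BERKO. Neither is tested, since the steps share the mESC arrays. The BERKO value was -0.42 without mESC array 2. From mDPC to MN in WT it was higher by 1.07 ± 0.59 (adjusted p = 0.163). From NPC to mDPC it differed by 0.00 ± 0.59 (adjusted p = 0.998) in WT and by -0.13 ± 0.59 (adjusted p = 0.893) in BERKO. Of all genes, the test called 62.9%, 30.4% and 42% in the 3 successive steps in WT, and 63.5%, 35.4% and 50.9% in BERKO.

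ND2, a membrane subunit of complex I, was higher in BERKO than in WT among untreated NPC. The levels were 15.19 and 15.56 in WT, and 15.78 and 16.57 in BERKO. Both BERKO arrays lay above both WT arrays, which was so for 34.2% of all genes tested. Array 2 of BERKO was the highest of all 29. The difference was 0.80 ± 0.19 (limma, adjusted p = 0.00689). Of all genes tested, 10.6% were called higher in this comparison. The difference was 0.41 (adjusted p = 0.21) without BERKO array 2 and 0.61 (adjusted p = 0.125) without WT array 1. In untreated mDPC it was 0.39 ± 0.19 (adjusted p = 0.223), with 15.51 and 15.24 in WT against 15.76 and 15.76 in BERKO. In mESC ND2 stood at 15.73 and 15.39 in WT and at 16.15 and 15.65 in BERKO, which overlap. With LY3201 the genotypes differed by 0.00 in NPC and by -0.03 in mDPC, and neither passed the test. In untreated MN ND2 stood at 15.81 and 15.72 in WT and at 15.80, 15.76 and 15.92 in BERKO. In MN with LY3201 it was lower in BERKO, at 15.64 and 15.66, against 15.94 and 15.90 in WT. Neither difference in MN passed the test. The LY3201 effects on ND2 in NPC were 0.36 ± 0.19 in WT and -0.44 ± 0.19 in BERKO. The difference between these effects was -0.80 ± 0.27 (adjusted p = 0.189).

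ND6 was higher in BERKO than in WT among MN with LY3201. The BERKO levels were 16.39 and 15.55, among the 3 highest of all arrays, and the WT levels 14.38 and 14.42. The difference was 1.57 ± 0.40 (limma, adjusted p = 0.00875), in a comparison where 9.01% of genes were called higher. It was 1.15 (adjusted p = 0.117) without BERKO array 1. In untreated MN the difference was 0.55 ± 0.36 (adjusted p = 0.328), since WT stood at 13.51 and 14.39 and BERKO at 13.79, 14.98 and 14.72. In untreated NPC and mDPC it was -0.29 and -0.11, and neither passed. With LY3201 it was -0.87 ± 0.40 in NPC (adjusted p = 0.216) and 0.83 ± 0.40 in mDPC (adjusted p = 0.186). Neither passed, BERKO being the lower in NPC and the higher in mDPC. In mDPC the groups did not overlap, which was so in the same direction for 23.4% of all genes tested. Over the stages, ND6 rose from mESC (12.79 and 13.00) to NPC (14.12 and 14.30) in WT, by 1.31 ± 0.40 (adjusted p = 0.00712, 27.9% of genes called higher). It fell from mDPC (14.68 and 15.30) to MN in WT, by 1.04 ± 0.40 (adjusted p = 0.0428, 24% of genes called lower). That call was lost without mDPC array 2 (-0.73, adjusted p = 0.276) or MN array 1 (-0.60, adjusted p = 0.343). In BERKO the same steps were 0.39 ± 0.40 (adjusted p = 0.414) and -0.38 ± 0.36 (adjusted p = 0.401).

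**Figure D3:**
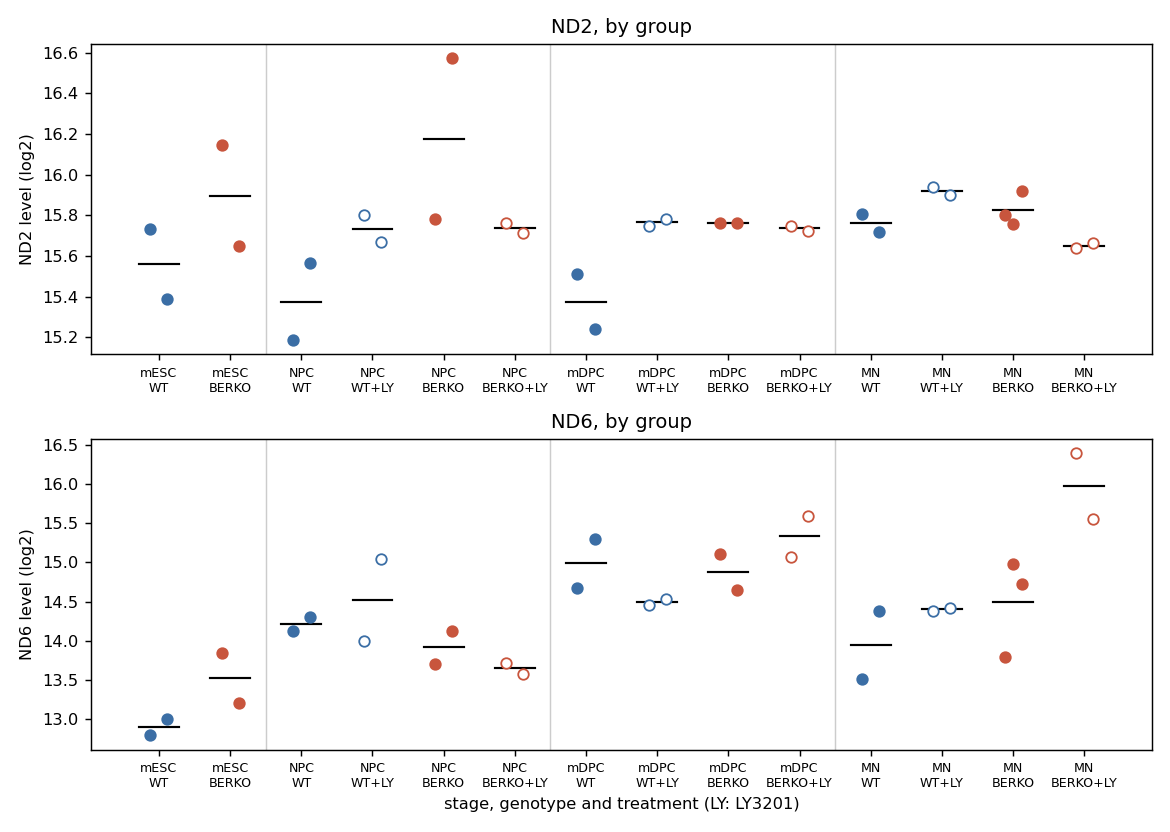
Levels of ND2 and ND6 (log2) in each of 29 arrays, by stage, genotype and treatment: filled points untreated, open points LY3201, WT blue, BERKO red, black lines group means. BERKO NPC array 2 stands at 16.57 for ND2, and both BERKO MN arrays with LY3201 stand at 15.55 and 16.39 for ND6.

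Among the bound protein genes, levels over all 29 arrays spanned 0.88 for ND3, 0.83 for COX2 and 1.32 for COX1. The free genes ND2 and ND6 spanned 1.39 and 3.60. ND3 rose from mESC to NPC, by 0.59 ± 0.09 in WT (19.15 and 19.00 to 19.64 and 19.68, adjusted p = 1.49e-05) and by 0.25 ± 0.09 in BERKO (19.61 and 19.30 to 19.67 and 19.75, adjusted p = 0.0237). The BERKO call was lost without mESC array 2 (0.10, adjusted p = 0.406) or without NPC array 2 (0.21, adjusted p = 0.136). COX2 rose over the same step in WT, from 10.69 and 10.90 to 11.26 and 11.32, by 0.50 ± 0.14 (adjusted p = 0.00431). In BERKO it went from 11.37 and 10.74 to 11.35 and 11.45, by 0.34 ± 0.14 (adjusted p = 0.0412), and the groups overlapped. That call was lost without any of 3 of the 4 arrays, and the difference was 0.03 (adjusted p = 0.854) without mESC array 2. In WT the call was lost without mESC array 1 (0.39, adjusted p = 0.061). Among genes tested, 27.7% were called higher over this step in BERKO. COX1 passed no test. It stood 1.07 higher in BERKO mESC array 1 (16.45) than in array 2 (15.38). Since these levels were limited by the scale or by the fixed gap, the sizes of the differences are not measures of the change in RNA.

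The 22 free clusters were next counted together, in a fit over 43502 clusters in place of genes. Between genotypes, 2 of 22 were called higher in BERKO in untreated NPC (ND2 and unnamed cluster 3; 5.57% of clusters called higher) and 2 in untreated mDPC (unnamed clusters 17 and 18; 4.13%). In untreated MN, 2 of 22 were called lower (unnamed clusters 23 and 29; 4.46%). Without WT array 1 or BERKO array 2 the count in NPC was 0. In mDPC it was 0 without WT array 1 or either BERKO array and 1 without WT array 2. In MN it was 0 without either WT array and 1 without BERKO array 1 or 3. Clusters 17, 23 and 29 were at background level in 25, 28 and 26 of 29 arrays. The median difference of the 22 was 0.58 in NPC, 0.54 in mDPC and -0.22 in MN, beside 0.01, -0.00 and -0.03 for all clusters. With LY3201 on both sides the medians were -0.32, 0.44 and -0.23, with 0, 0 and 3 of 22 called, against 1, 3 and 5 with an unadjusted p under 0.05. The 3 called in MN were ND6 and cluster 19 (2.73 ± 0.65), higher, and cluster 29, lower. The count was 1 without WT array 2 or BERKO array 1. Cluster 19 stood at 19.57 and 19.55 in these BERKO arrays, whose highest values were 19.64 and 19.70. The size of its difference may therefore be limited by the scale. Over all clusters 5.31%, 9.17% and 11.3% were called in these comparisons. In mESC the median was 0.57 and 20 of 22 were above 0, which is given as a description because mt-Tk was chosen there.

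Markers of other cells differed between the same groups. In NPC the mesenchymal genes Dcn, Col1a1, Col3a1 and Pdgfrb summed to 33.15 to 33.22 log2 units in WT and 21.97 to 22.23 in BERKO, with 2 of 4 above background in WT and 0 of 4 in BERKO. In MN these sums were 29.54 to 29.61 and 16.99 to 17.66, with 3 of 4 and 0 of 4 above background, and with LY3201 28.53 to 32.80 and 17.35 to 18.07, with 1 of 4 and 0 of 4. In mDPC the proliferation genes Mki67, Top2a, Plk1 and Aurkb summed to 26.15 to 26.53 in WT and 19.60 to 19.88 in BERKO, with 2 of 4 and 0 of 4 above background. In NPC these sums were higher, at 46.91 to 47.87 in WT and 50.92 to 51.48 in BERKO, with 3 of 4 and 4 of 4 above background. In untreated MN the neuron genes stood higher in WT, where array sums lay far apart (42.89 to 52.01 against 39.63 to 40.95). The oligodendrocyte genes Mag, Mobp, Mog and Olig2 summed to 37.69 to 40.63 in WT and 33.73 to 35.82 in BERKO, and the astrocyte genes Aldh1l1, Aqp4, Gfap and Slc1a3 to 42.15 to 42.41 and 44.41 to 44.63. Their part in the mitochondrial differences was not tested. In such bulk samples, fewer cells of a type and less RNA per cell cannot be told apart.

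Between stages, the counts of free clusters are read against the shares of all clusters. From mESC to NPC, 5 of 21 (mt-Tk left out) were called higher and 1 lower in WT, and 3 higher and 2 lower in BERKO, beside 22.7% and 26.2% of clusters called higher and lower in WT and 22.4% and 26.1% in BERKO. Unnamed cluster 28 had the largest rise in both genotypes, with levels of 13.64 and 12.55 in WT mESC, 15.57 and 15.94 in WT NPC, and 14.71 and 13.11 in BERKO mESC, 16.38 and 16.55 in BERKO NPC. The rise was 2.66 ± 0.47 in WT and 2.56 ± 0.47 in BERKO, both called. From NPC to mDPC, 7 of 22 were called higher and 0 lower in WT, and 8 higher and 0 lower in BERKO, beside 8.46% and 9.86% of clusters called higher and 9.37% and 13.2% called lower. The WT count was 1 without NPC array 1, 4 without mDPC array 1 and 3 without mDPC array 2. The BERKO count was 5 without NPC array 1 or either mDPC array. The medians were 0.68 and 0.95, against 0.02 over all clusters in both genotypes. Unnamed cluster 18 was called in both, with 13.07 and 13.27 in WT NPC against 15.00 and 14.79 in WT mDPC (1.72 ± 0.25). From mDPC to MN, 7 were called higher and 2 lower in WT, and 1 higher and 4 lower in BERKO, beside 10.7% and 16% in WT and 12% and 21.6% in BERKO. The WT count of 9 in both directions was 4 without MN array 1. The largest rise in WT was 1.74, of unnamed cluster 17 (4.80 and 4.63 to 7.10 and 5.81), at background level in 25 of 29 arrays. Clusters 23 and 29, at background level in 28 and 26 arrays, also stood higher in WT MN than in WT mDPC. Whether this last step differs between genotypes was not tested.

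**Figure D4:**
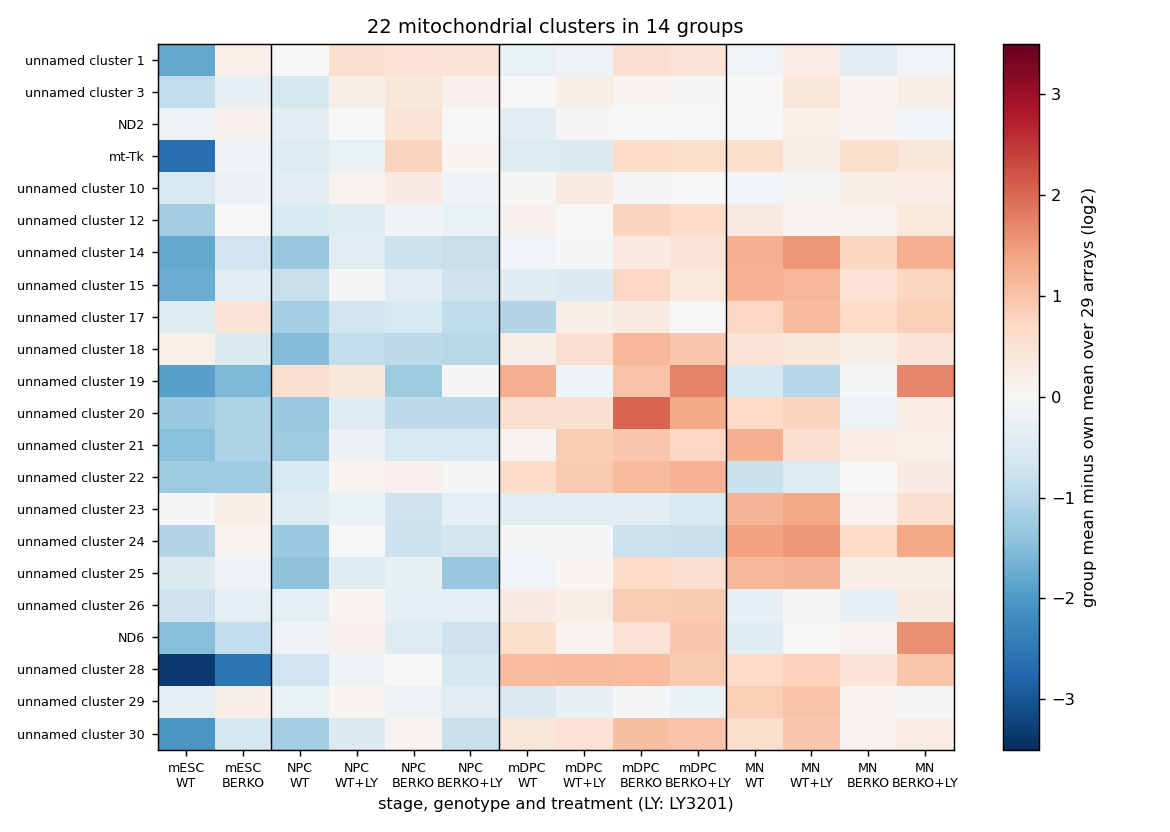
Group means of the 22 free mitochondrial clusters, each minus its own mean over 29 arrays (log2), in 14 groups by stage, genotype and treatment. Unnamed cluster 28 is lowest in WT mESC, 3.35 below its own mean, and unnamed cluster 20 is highest in BERKO mDPC, 2.04 above it.

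No mitochondrial gene or free cluster was called in the 6 comparisons of LY3201 with untreated cells, or in the 3 tests of a difference of its effects between genotypes (limma, 0 of 22 in each of 9). This does not show that the effects were equal. In WT NPC, WT mDPC and BERKO MN, 6, 2 and 3 of 22 had an unadjusted p under 0.05, in BERKO NPC 2, in WT MN and BERKO mDPC 0, and in the differences of effects 6 in NPC, 2 in mDPC and 1 in MN. Few features of any kind were called. Over clusters the share was 0.0023% in WT NPC, 0.00919% in WT mDPC, 0.531% in WT MN, 0% in BERKO NPC, 0.00919% in BERKO mDPC and 0.0644% in BERKO MN, and over genes 0.00453%, 0.0635%, 1.83%, 0%, 0.113% and 0.344%. For the differences of effects in NPC, mDPC and MN it was 0.0046%, 0.0023% and 0.0805% of clusters, and 0.499%, 0% and 0.63% of genes. In WT NPC 21 of 22 clusters stood higher with LY3201, with a median of 0.56, against 0.001 over all clusters. The 2 treated arrays of this comparison share a title number. Over the same 22 clusters they differed from each other by a median of -0.84 (array 1 minus array 2). mt-Tk differed by 0.21 ± 0.59 (adjusted p = 0.956) in WT NPC, by -0.02 ± 0.59 (adjusted p = 0.992) in WT mDPC and by -0.38 ± 0.59 (adjusted p = 0.848) in WT MN. In BERKO it differed by -0.69 ± 0.59 (adjusted p = 0.821) in NPC, by -0.03 ± 0.59 (adjusted p = 0.996) in mDPC and by -0.19 ± 0.54 (adjusted p = 0.934) in MN. ND6 in BERKO MN was 1.47 ± 0.36 higher with LY3201, which did not pass (adjusted p = 0.0861).

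In several groups the free clusters differed together between arrays of the group. In BERKO mESC all 22 were higher in array 1 than in array 2, with a median difference of 0.92, against 0.02 over all genes tested. In WT NPC with LY3201, 20 of 22 were higher in array 2, with a median of 0.84 in its favour. In BERKO NPC, 21 of 22 were higher in array 2, with a median of 0.44. In WT NPC, 19 of 22 were higher in array 2, with a median of 0.30. In the 12 remaining pairs, from 7 to 15 of 22 were higher in the first array, and the medians lay between -0.24 and 0.22. In the first 2 of these groups, whose arrays share a title number, the array with the suffix was the higher. Negative controls lay the other way there, with a median of 4.05 in BERKO mESC array 1 against 4.25 in array 2, and 4.09 in WT NPC with LY3201 array 1 against 3.98 in array 2. Small nuclear RNAs as a class differed by a median of 0.36 in favour of array 1 in BERKO mESC and by 0.11, also in favour of array 1, in WT NPC with LY3201. In BERKO NPC and WT NPC their medians, array 1 minus array 2, were -0.30 and -0.07, the same direction as the free clusters. mt-Tk differed by 2.61 in favour of array 1 in BERKO mESC and by 0.89 in favour of array 2 in WT NPC with LY3201. Whether a technical or a biological source lies behind this was not tested.

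**Figure D5:**
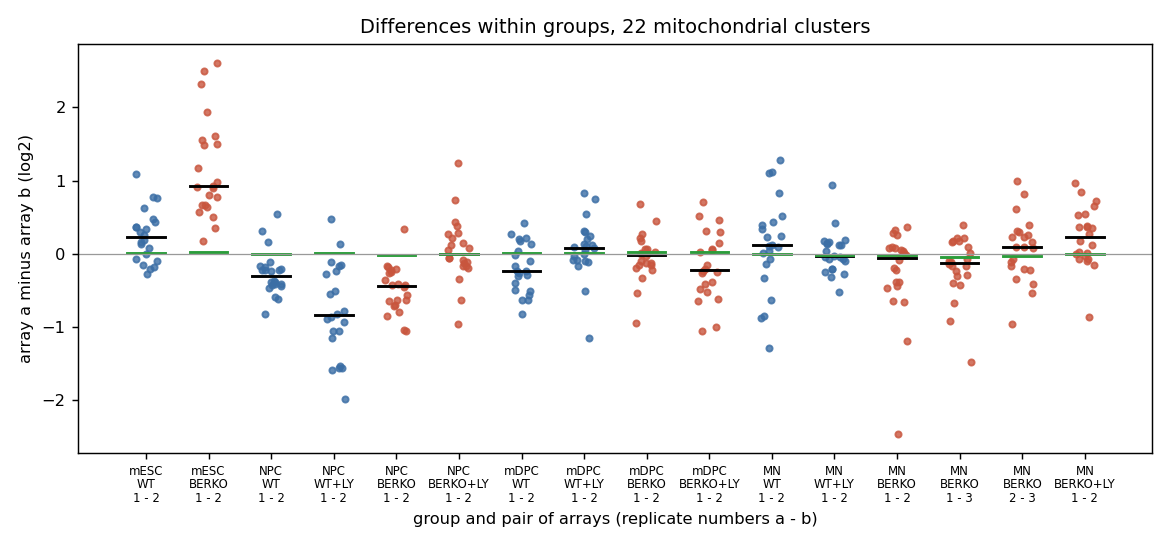
Difference between arrays of the same group (log2, first minus second) for each of the 22 free mitochondrial clusters, with black lines at their medians and green lines at the median of all genes tested, WT blue and BERKO red. BERKO mESC stands at a median of 0.92 and WT NPC with LY3201 at -0.84, while all genes stay near 0.

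Nuclear genes that serve these RNAs were read from 9 lists with 187 genes tested, none of them bound. Between genotypes in untreated NPC, 11 of 33 nuclear complex I subunits were called higher in BERKO and 1 lower, Ndufc2 (median 0.25, against 0.03 over all genes), among them Ndufa8 by 0.79 ± 0.11 (adjusted p = 3.75e-05) and Ndufb7 by 0.78 ± 0.11 (adjusted p = 3.25e-05). Of subunits of complexes III, IV and V, 17 of 33 were higher and 0 lower, such as Cox6a1 by 0.73 ± 0.16 (adjusted p = 0.00399). Of all genes tested, 10.6% were called higher. In untreated mDPC 9 complex I subunits were higher and Ndufc2 lower, and 7 subunits of the other complexes were higher, beside 8.51% of genes. In MN the calls were Ndufs1 and Ndufa10, and Cox5a, Cox8a, Uqcrc1 and Uqcrh, all higher, beside 13.5% of genes. Of 8 regulators of mitochondrial biogenesis, 2, 1 and 1 were called higher in untreated NPC, mDPC and MN, and 0 lower. Their medians were 0.19, 0.06 and 0.01, against 0.03, 0.02 and 0.01 over all genes. Among them the coactivator Ppargc1a was higher in BERKO at all 3 stages, by 0.81 ± 0.11 (adjusted p = 3.5e-05), 0.99 ± 0.11 (adjusted p = 2.34e-06) and 0.85 ± 0.10 (adjusted p = 3.39e-06). Of transfer RNA modification genes in NPC, 1 of 17 was higher and 1 lower: Mto1 by 0.49 ± 0.10 (adjusted p = 0.00243), which modifies the wobble base of several transfer RNAs including that for lysine, and Mettl8 by -0.47 ± 0.09 (adjusted p = 0.00109). Of 21 synthetase genes 3 were higher and 0 lower, beside the same 10.6% of genes: Gars by 0.62, Cars2 by 0.33, and Kars, whose product charges the lysine transfer RNA in the cytosol and in mitochondria, by 0.40 ± 0.08 (adjusted p = 0.00139).

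With LY3201 on both sides the subunit lists gave other counts. In NPC 4 of 33 complex I subunits were called lower in BERKO (Ndufa6, Ndufa7, Ndufc2 and Ndufv3) and 0 higher, and of complexes III, IV and V Atp5e was lower, beside 10.4% of genes called. In mDPC 4 complex I subunits were higher (Ndufa9, Ndufb6, Ndufs1 and Ndufv1) and 3 lower (Ndufb7, Ndufc2 and Ndufv3), and 4 of the other complexes higher (Uqcrc2, Uqcrh, Cox5a and Atp5h), beside 15.3%. In MN Ndufs1, Uqcrc2, Uqcrh and Cox5a were higher and Ndufa5, Ndufv3, Atp5g1 and Atp5g2 lower, beside 19.6%. The difference of the LY3201 effects in NPC, BERKO minus WT, had medians of -0.31 over complex I and -0.33 over complexes III, IV and V, against -0.05 over all genes. It passed for 3 genes, all lower, beside 0.499% of genes: Ndufb7 (-0.85, adjusted p = 0.0196), Atp5e (-0.88, adjusted p = 0.0196) and Atp5k (-0.83, adjusted p = 0.0471).

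From mESC to NPC most nuclear genes for mitochondrial gene expression were called lower. In WT 32 of 36 mitochondrial ribosome genes were called lower and 1 higher (median -1.03), 16 of 19 RNA processing genes lower and 2 higher, 13 of 17 transfer RNA modification genes lower and 2 higher, 17 of 21 synthetase genes lower and 2 higher, and 7 of 9 transcription genes lower and 0 higher. Of all genes tested, 35% were called lower. In BERKO the counts lower were 29, 15, 13, 14 and 8, beside 35.9% of genes. Mrpl15, a protein of the large ribosomal subunit, fell by 3.78 ± 0.10 in WT (adjusted p = 4.01e-17), and Tfb1m, which methylates the 12S ribosomal RNA, fell by 2.79 ± 0.08 (adjusted p = 1.06e-16). Of 33 complex I subunits, 8 were called higher and 9 lower in WT (median 0.05, against -0.04 over all genes). In BERKO 19 were called higher and 5 lower (median 0.32, against -0.10). Of all genes tested, 27.9% were called higher in WT and 27.7% in BERKO. From mDPC to MN, 25 of 33 subunits of complexes III, IV and V fell and Atp5g1 rose in WT, and 29 fell in BERKO, beside 24% and 30.8% of genes called lower. With LY3201 in WT MN, 2 of the 187 list genes were called higher and 0 lower, beside 1.83% of all genes called. They were Ndufb7, by 0.43 ± 0.11 (adjusted p = 0.0421), and Pnpt1, by 0.42 ± 0.11 (adjusted p = 0.0495).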

How the data were processed

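The 29 RNA samples were each labelled from 150 ng and hybridised to a Clariom D (MTA 1.0) array of the mouse transcriptome. The deposited log2 values were produced by the authors through SST-RMA, per the labels, using Affymetrix Expression Console 1.4, and were used as given. SST-RMA transforms, background-corrects, normalizes and summarizes probe signals. The number of arrays limits the precision. The genome build was not given in the sources used here, so no coordinates are printed. The platform annotation named 30604 clusters with 1 symbol, 2146 with several and 33206 with none, and RefSeq updated 827 symbols by gene ID.

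Group means of all 14 groups were fitted with limma 3.58.1 in R 4.3.3. Contrasts (22 comparisons, 2-sided, threshold 0.05) were Benjamini-Hochberg adjusted over the 22063 genes above the array median in at least 2 arrays. The fit was tested on simulated data. Standard errors (SE) and 95% intervals are from limma. Genes with an mt- symbol, markers and up to 3 called genes of largest change per pathway list could be named; ND2, ND3, ND6, COX1, COX2, the unnamed clusters and the sole members of small counts were added after their values were seen. Members and lists were chosen with earlier results of these data known. As alternatives, genes were left unfiltered or filtered at the 75th percentile, arrays were quantile normalized, limma's prior was made robust with a trend, clusters replaced genes, and only compared groups were fitted, besides averaging arrays with the same title number, and leaving out each array.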

Additional observations from a re-analysis of the deposited data

How the results depend on the processing

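Under alternatives other than leaving out arrays, 150 of 154 mt-Tk values counted as unchanged. For the untested comparisons with mESC this was judged by sign and size. For the 19 tested ones it meant keeping the same side of the threshold. The 4 others passed it: the genotype difference in mDPC with LY3201 (1.08, adjusted p = 0.0321) and the WT step from mDPC to MN (1.07, adjusted p = 0.0352) when only the compared groups were fitted, and that step (1.07, adjusted p = 0.0407) and the genotype difference in untreated NPC (1.22, adjusted p = 0.0493) when arrays with the same title number were averaged. Its sign changed in 4 of the 154 values, all under quantile normalization, and in 25 values with an array left out, none of which crossed the threshold. Apart from the BERKO step from mESC to NPC, a description that ran from -0.42 to 2.19, these were differences of at most 0.38. COX2 ran from -0.051 to 0.57 between genotypes in mESC.

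The number of free clusters called moved by over 1.5 times as follows. Without a filter it was 1 in untreated mDPC between genotypes. With the 75th percentile filter it was 4 between genotypes in untreated MN and 1 in mDPC with LY3201. Quantile normalization gave 0 in untreated NPC, 1 in mDPC with LY3201, and 11 from mESC to NPC in WT. With only the compared groups fitted it was 5 and 4 between genotypes in untreated mDPC and MN, 12 and 11 for the first 2 steps in WT, and 3, 13 and 10 for the 3 steps in BERKO. With same-number arrays averaged it was 5, 6 and 6 between genotypes in untreated NPC, mDPC and MN, 4 and 5 in mDPC and MN with LY3201, 10 and 11 for the first 2 steps in WT, and 9 from mDPC to MN in BERKO. The trended robust prior moved none of the 21 counts by that much. With single arrays left out, the counts between genotypes ran from 0 to 3 in untreated NPC, 0 to 1 in untreated mDPC, 0 to 2 in untreated MN and 1 to 2 in MN with LY3201. The steps ran from 4 to 6, 1 to 6 and 4 to 11 in WT, and from 4 to 7, 5 to 7 and 4 to 5 in BERKO. The LY3201 effect in BERKO MN and the difference of effects in NPC ran from 0 to 1. The causes were not tested.

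ND2 between genotypes in untreated NPC also lost its call under quantile normalization (0.50, adjusted p = 0.0606) and when only the compared groups were fitted (adjusted p = 0.148). ND6 between genotypes in MN with LY3201 lost it in the latter (adjusted p = 0.0515), and its fall from mDPC to MN in WT lost it there (adjusted p = 0.069), without a filter (adjusted p = 0.0538) and over clusters (adjusted p = 0.0626). The ceiling prevents any measurement of mt-Rnr1, and 5 unnamed clusters lay below the 95th percentile of negative controls in at least 10 arrays. No paired analysis was possible because the groups compared share fewer than 2 title numbers. With 2 arrays per group, whether the biological replicates came from separate cultures or lines is not given, so p-values measure only the spread between these arrays.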
